A study of Mus musculus with 6 samples.

Results

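*Arpp21*, *Ttc28*, *Ift88* and *Vash2* are 4 mouse genes that carry some of the highest NOVA2 binding clusters lying in introns and overlapping no NOVA1 cluster. They were selected on that measurement, from 37310 annotated genes, so the tag counts of their highest NOVA2-only clusters are a description and carry no test. All clusters on the strand of the gene were collected for each of them, which gave 86 of 36591 NOVA2 clusters and 19 of 9988 NOVA1 clusters. NOVA1 and NOVA2 had each been immunoprecipitated from ultraviolet-irradiated cortex of wild-type CD1 mice at embryonic day 18.5, and the RNA fragments crosslinked to them were sequenced (HITS-CLIP). There were 3 libraries per protein, 6 in all, and the tags of each protein were pooled in the deposited lists with no value per library, so that the spread between replicates is unknown for every value below. A cluster is a run of overlapping tags of 1 strand, seen in at least 2 libraries and listed only at 10 tags or more. The study calls the value behind this minimum a peak height, so a tag count below may be the greatest depth of a cluster and not the number of all its tags. Intervals given here are 95% intervals that cover counting error only.

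The NOVA proteins are splicing regulators of neurons with KH domains that bind clustered YCAY tetramers, where Y is C or U. In pre-mRNA their binding near an alternative exon can raise or lower its inclusion, depending on the side of the exon on which they bind, and they also bind deep in long introns and in 3' UTRs. *Arpp21* encodes an R3H-domain RNA-binding phosphoprotein of neurons and hosts the miRNA gene *Mir128-2* in an intron. *Ttc28* encodes a protein with tetratricopeptide repeats, *Ift88* a subunit of the intraflagellar transport complex B that is needed to build the primary cilium, and *Vash2* a vasohibin that removes the terminal tyrosine of alpha-tubulin.

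The highest NOVA2-only cluster of each gene lay in a local array of related repeat units, and the units carried YCAY. The 150 nt of each cluster with the most YCAY starts are shown because this feature can be read in the letters. They are written 5′ to 3′ on the strand of the gene, from the mm9 genome (NCBIM37), and capitals mark YCAY, with overlapping matches run together.
*Arpp21*, chr9:112010342-112010491, minus strand: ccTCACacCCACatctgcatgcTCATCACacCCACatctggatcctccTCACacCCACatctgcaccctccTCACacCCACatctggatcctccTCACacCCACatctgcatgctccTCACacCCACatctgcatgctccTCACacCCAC
*Ttc28*, chr5:111572693-111572842, plus strand: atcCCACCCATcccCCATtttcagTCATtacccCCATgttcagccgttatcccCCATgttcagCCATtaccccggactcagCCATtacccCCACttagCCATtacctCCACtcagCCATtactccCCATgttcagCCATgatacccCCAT
*Ift88*, chr14:58124017-58124166, plus strand: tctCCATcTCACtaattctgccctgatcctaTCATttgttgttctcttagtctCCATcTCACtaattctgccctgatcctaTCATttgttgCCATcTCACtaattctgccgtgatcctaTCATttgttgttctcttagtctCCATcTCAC
*Vash2*, chr1:192781140-192781289, minus strand: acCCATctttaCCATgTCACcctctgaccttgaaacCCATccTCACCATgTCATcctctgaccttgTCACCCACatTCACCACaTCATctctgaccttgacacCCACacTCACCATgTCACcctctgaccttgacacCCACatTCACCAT

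These windows held 15 YCAY starts in *Arpp21*, 15 in *Ttc28*, 11 in *Ift88* and 19 in *Vash2*. The units were not the same in the 4 genes. In the whole clusters, the 12-mer ctccTCACaccc occurred 7 times in *Arpp21*, ccCCATgttcag 7 times in *Ttc28*, tgttgttctctt 4 times in *Ift88* and ctctgaccttga 7 times in *Vash2*. In *Arpp21* the array matched itself at a shift of 23 nt with 95% identity over its best 100 nt, and in *Vash2* at a shift of 34 nt with 94% identity. Shifts of up to 60 nt were tried. Among them the best in *Ift88*, 50 nt, gave 72% identity, and none in *Ttc28* gave more than 52%. Copies of the 12-mer lay 49 to 88 nt apart in *Ift88* and 20 to 105 nt apart in *Ttc28*, and longer shifts were not tried. Stretches made of 12-mers present more than once covered 33.2% of the *Arpp21* cluster, 50.6% of the *Ttc28* cluster, 62.5% of the *Ift88* cluster and 72.0% of the *Vash2* cluster. Of the YCAY starts of each cluster, 17 of 27 in *Arpp21*, 18 of 33 in *Ttc28*, 15 of 18 in *Ift88* and 40 of 46 in *Vash2* fell in such stretches. The tetramers used differed as well. TCAC was the most frequent in *Arpp21* with 11 starts, CCAT in *Ttc28* with 24, TCAT in *Ift88* with 7, and TCAC in *Vash2* with 17, next to 16 of CCAT.

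**Figure D1:**
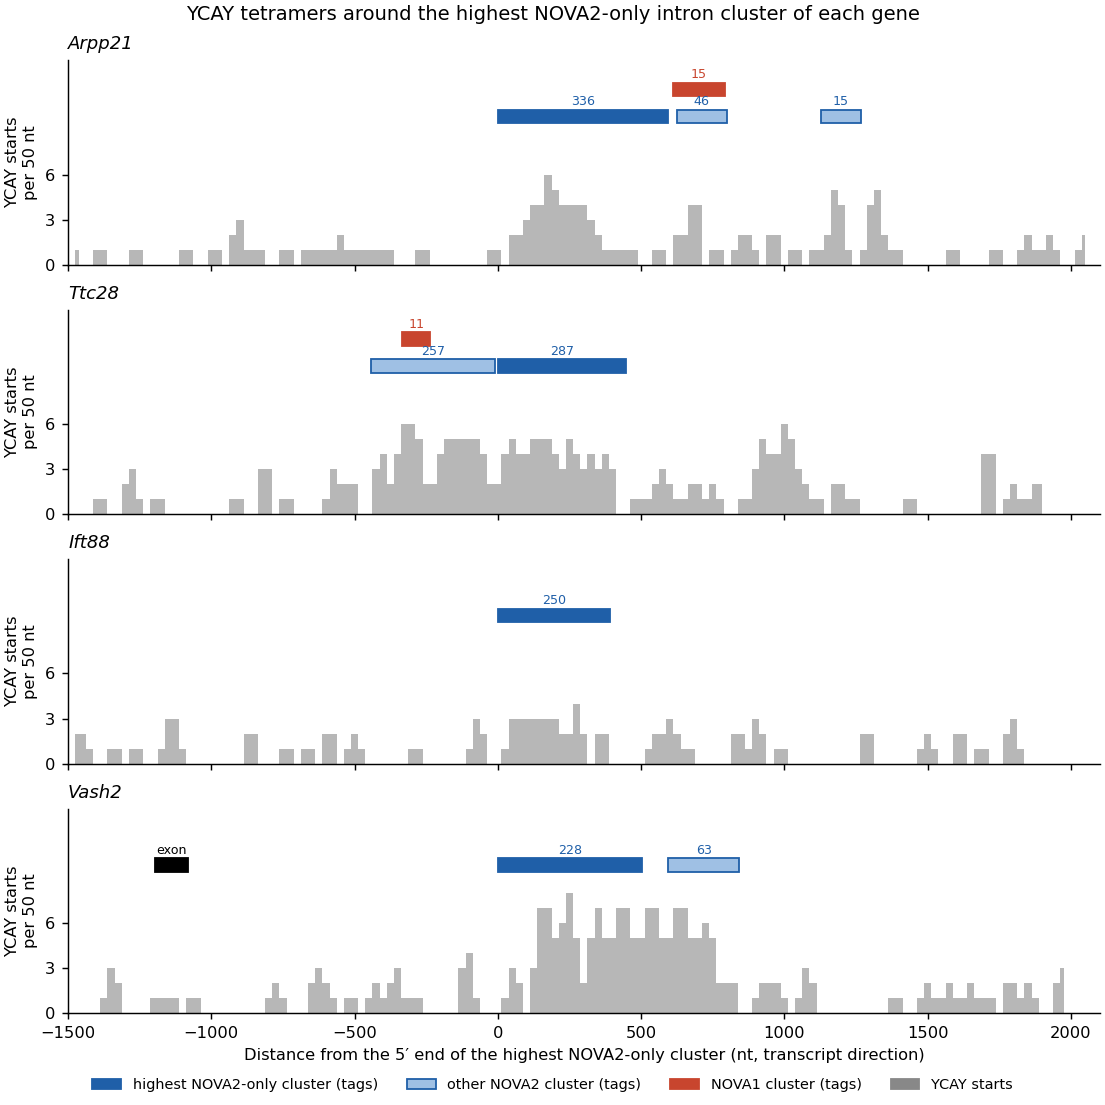
YCAY starts per 50 nt (grey, y axis) from 1500 nt before to 1500 nt after the highest NOVA2-only cluster of each gene (x axis, nt from its 5′ end in the direction of transcription), with NOVA2 clusters in blue, NOVA1 clusters in red and exons in black, and the tags of each cluster printed above it. The grey profile rises under the 336-tag, 287-tag, 250-tag and 228-tag clusters, and in *Ttc28* and *Vash2* it stays high under the neighbouring NOVA2 cluster. It also rises where no cluster is listed, to 6 in *Ttc28* at 1000 nt and to 5 in *Arpp21* at 1325 nt.

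The 4 chosen clusters had 336 tags in *Arpp21*, 287 in *Ttc28*, 250 in *Ift88* and 228 in *Vash2*. Among all NOVA2 intron clusters without NOVA1 overlap these were ranks 1, 2, 4 and 5. Just inside the choice, *Vash2* was followed at rank 6 by a cluster of 225 tags in *Rbfox1*, and rank 3, with 252 tags, was a cluster in *Robo1* that was not chosen. Rank 7, with 223 tags, was a further cluster of *Arpp21*. High tag counts without NOVA1 overlap were rare. In the whole list 85.9% of NOVA2 intron clusters overlapped no NOVA1 cluster, against 15.2% of those with 100 or more tags and 2.36% of those with 200 or more (10 of 423). Of the 137 NOVA2 intron clusters with at least 336 tags, 1 had no NOVA1 overlap, and of the 333 with at least 228 tags, 5 had none. The *Arpp21* cluster was at rank 251 by tags in the whole NOVA2 list, exons and UTRs included. The chosen clusters were also wide, at 594, 447, 392 and 504 nt in the same order of genes, against a median of 114 nt (quartiles 85 and 156) over all NOVA2 clusters. At 200 or more tags, the median width was 476 nt in the 10 intron clusters without NOVA1 overlap and 291 nt in the 413 with it. The part of width in the tag counts was not tested.

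*Arpp21* (ENSMUSG00000032503.10, chr9:111967595-112138442, minus strand, mm9) held 43 NOVA2 clusters with 2455 tags and 10 NOVA1 clusters with 194 tags. It ranked 106th by number of NOVA2 clusters and 57th by NOVA2 tags among 5214 genes with a NOVA2 cluster. Its density was 25.2 NOVA2 clusters per 100 kb, against a median of 5.11 (quartiles 2.55 and 9.91). Its highest cluster held 13.7% of the NOVA2 tags. Intron 19 of the transcript Arpp21-001, 51873 nt long, carried 15 NOVA2 clusters with 1217 tags and 5 of the 10 NOVA1 clusters. Intron 10 carried 11 NOVA2 clusters with 510 tags and 3 NOVA1 clusters.

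The 336-tag cluster of *Arpp21* (chr9:112010042-112010635) lay in intron 19. It overlapped no NOVA1 cluster, but it was not far from one. A NOVA1 cluster of 15 tags (chr9:112009844-112010023) began 18 nt downstream of it and overlapped a separate NOVA2 cluster of 46 tags (chr9:112009836-112010010). Only 2.20% of all NOVA2-only intron clusters had a NOVA1 cluster within 100 nt and 9.31% within 1 kb. The nearest exon was 8088 nt upstream, an alternative last exon (chr9:112018724-112019271) found in 1 of the 10 transcripts that span it.

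The other high NOVA2 clusters of *Arpp21* had 301 tags (chr9:112015886-112016112, intron 19), 223 tags (chr9:112106266-112106524, intron 2), 164 tags (chr9:111978777-111979009, intron 19) and 162 tags (chr9:112072494-112072753, intron 10). Of these the 301-tag and the 162-tag clusters overlapped NOVA1, and the 223-tag and 164-tag clusters did not. The nearest NOVA1 cluster was 5203 nt from the 223-tag cluster and 12812 nt from the 164-tag cluster. None of these 4 clusters held a 12-mer more than once in the 300 nt around its midpoint.

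*Ttc28* (ENSMUSG00000033209.10, chr5:111308822-111718800, plus strand) held 35 NOVA2 clusters with 1812 tags and 9 NOVA1 clusters with 178 tags. GENCODE vM1 lists it as a lincRNA, while RefSeq lists the gene as protein coding. The gene spans 409979 nt, and its NOVA2 density, 8.54 clusters per 100 kb, lay within the quartiles of all genes with a NOVA2 cluster. Intron 2, 191911 nt long, carried 21 NOVA2 clusters with 882 tags and 6 NOVA1 clusters. Intron 5 carried 9 NOVA2 clusters with 738 tags and 1 NOVA1 cluster.

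The 287-tag cluster of *Ttc28* (chr5:111572663-111573109) lay in intron 5, 38833 nt upstream of the nearest exon. A separation of 9 nt divided it from a NOVA2 cluster of 257 tags (chr5:111572220-111572653), which overlapped a NOVA1 cluster of 11 tags (chr5:111572330-111572425). Both NOVA2 clusters lay in the same repeat array, with 33 and 34 YCAY starts, so clusters of both proteins lay in the array, and the division between a shared and an unshared NOVA2 cluster fell inside it. The distance from the 287-tag cluster to the NOVA1 cluster was 237 nt. A stretch of the 257-tag neighbour (chr5:111572303-111572402, plus strand) that reaches into the NOVA1 cluster is shown for comparison with the window above, again with YCAY in capitals.
*Ttc28*, 257-tag cluster: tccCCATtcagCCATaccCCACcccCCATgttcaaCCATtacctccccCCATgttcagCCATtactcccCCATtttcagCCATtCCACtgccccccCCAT

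The next NOVA2 clusters of *Ttc28* had 207 tags (chr5:111432588-111432846), 180 tags (chr5:111431087-111431406) and 135 tags (chr5:111524740-111524900). The first and second overlapped NOVA1 in intron 2. The 135-tag cluster, in intron 3, did not, and its nearest NOVA1 cluster was 47429 nt away.

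*Ift88* (ENSMUSG00000040040.9, chr14:58042899-58136773, plus strand) held 3 NOVA2 clusters and no NOVA1 cluster. Their tag counts were 250, 14 and 12, so the highest cluster (chr14:58123952-58124343) carried 90.6% of the 276 tags. For comparison, the highest cluster held a median of 36.2% (quartiles 24.7 and 47.9) in the 2374 genes with at least 3 NOVA2 clusters. It lay in intron 23 of Ift88-001, 10925 nt long, 1698 nt upstream of exon 24. The nearest NOVA1 cluster of its strand was 567657 nt away, outside the gene. The smaller clusters lay near exons. That of 14 tags (chr14:58098374-58098502) was 231 nt upstream of exon 18, and that of 12 tags (chr14:58054173-58054250) was 478 nt downstream of exon 3.

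*Vash2* (ENSMUSG00000037568.6, chr1:192771527-192803175, minus strand) held 5 NOVA2 clusters with 341 tags and no NOVA1 cluster. The highest, with 228 tags (chr1:192780909-192781412), lay in intron 7 of its longer transcript, 1080 nt downstream of exon 7, and held 66.9% of the tags. Next to it lay a NOVA2 cluster of 63 tags (chr1:192780569-192780817), also without NOVA1 overlap, and this neighbour continued the repeat array. It held 23 YCAY starts and matched itself at 97% identity. Both clusters of intron 7 together carried 291 tags. The remaining clusters lay in intron 3 and had 24 tags (chr1:192791232-192791326), 14 tags (chr1:192792921-192792998) and 12 tags (chr1:192791340-192791471). Those of 24 and 12 tags were 367 and 475 nt upstream of exon 4, a coding exon of 57 nt in both transcripts. The nearest NOVA1 cluster of the same strand was 1936361 nt from the highest cluster.

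**Figure D2:**
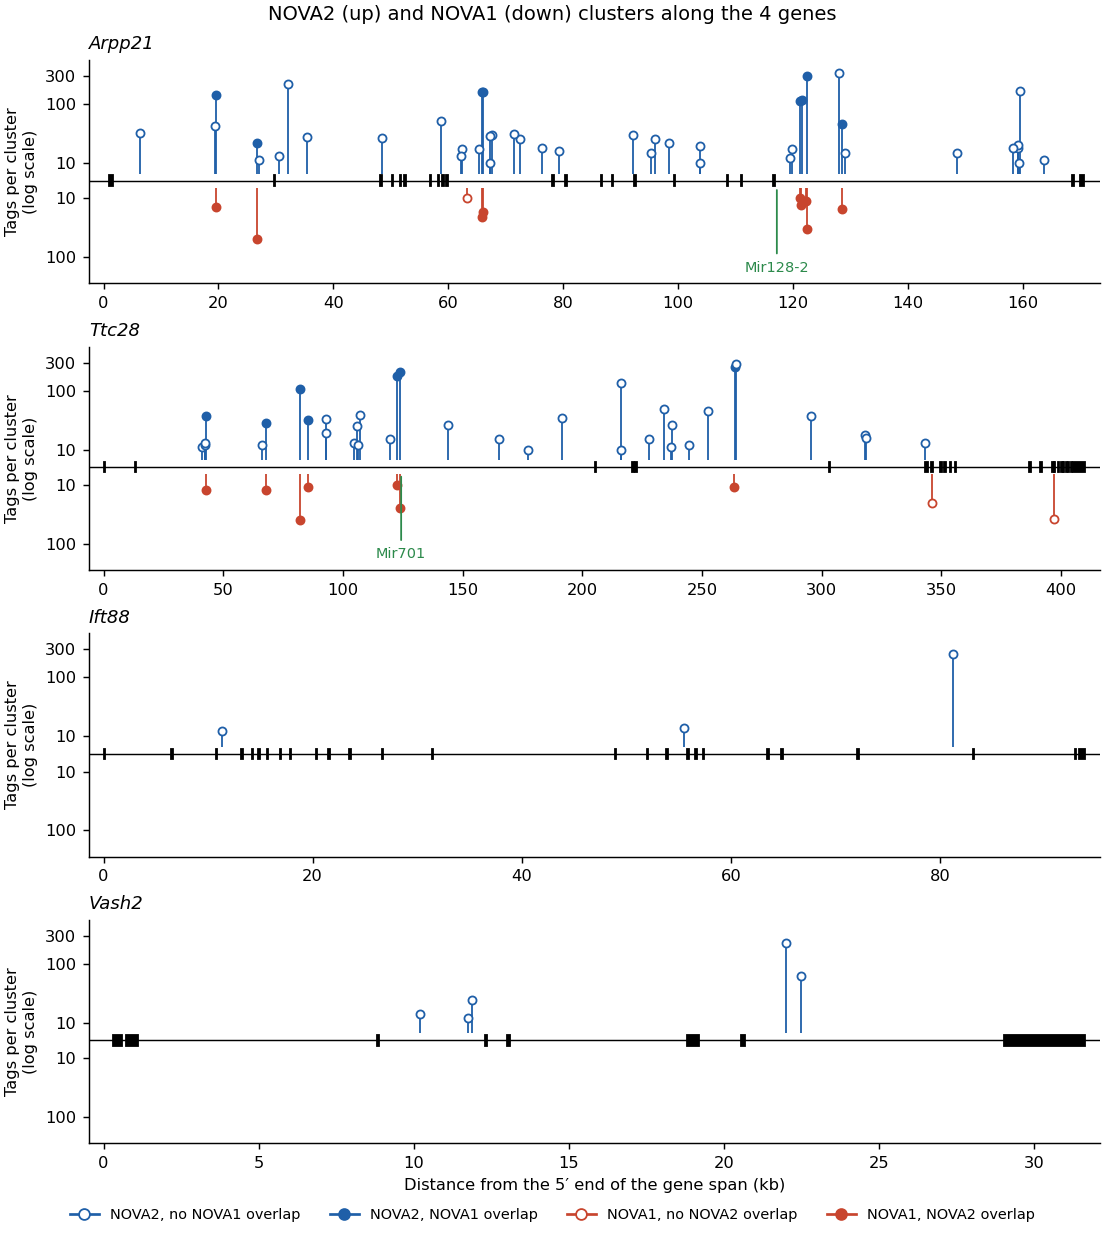
Tags per cluster (y axis, log scale; NOVA2 above and NOVA1 below the gene line) against the distance from the 5′ end of each gene (x axis, kb). Filled points overlap a cluster of the other protein, open points do not, black boxes are exons of the longest transcript and green lines are miRNA genes. *Arpp21* and *Ttc28* hold clusters of both proteins along their introns, while *Ift88* and *Vash2* hold 3 and 5 NOVA2 clusters and no NOVA1 cluster.

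Over the 4 genes, 71 of 86 NOVA2 clusters overlapped no NOVA1 cluster, or 82.6% (73.2 to 89.1), against 77.9% of all NOVA2 clusters and 85.9% of those in introns. Because the genes were selected for an unshared cluster, this share is a description, and it lay near the background. The unshared clusters had a median of 18 tags and the 15 shared ones a median of 119 tags. Of the 71 unshared clusters, 11 lay within 1 kb of a NOVA1 cluster (15.5%), against 9.31% of all NOVA2-only intron clusters. All but 1 of the 86 were in introns (98.8%, 93.7 to 99.8), against 74.6% of all NOVA2 clusters. The exception was a 12-tag cluster in the 3' UTR of the alternative last exon of *Arpp21* (chr9:112018834-112018937). Of the 19 NOVA1 clusters, 17 were in introns and 2 in exons, while 40.5% of all NOVA1 clusters were in introns. These intron shares are a description too, because the genes were selected for an intron cluster. Only clusters inside gene spans were collected, while the whole lists also hold clusters outside genes.

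All NOVA1 clusters were in *Arpp21* or *Ttc28*, and 16 of the 19 overlapped a NOVA2 cluster, near the share of 80.1% over all NOVA1 clusters. In *Arpp21* intron 19, NOVA1 clusters of 33 tags (chr9:112015900-112016032) and 11 tags (chr9:112016058-112016112) lay in the 301-tag NOVA2 cluster. Part of that cluster (chr9:112015950-112016049, minus strand) is shown as the highest cluster shared with NOVA1 in this gene, and it carries 8 YCAY starts. No 12-mer occurred more than once in the 300 nt around the midpoint of the 301-tag cluster. Around the midpoint of the 11-tag NOVA1 cluster, however, the sequence matched itself with 78% identity over its best 100 nt.
*Arpp21*, 301-tag cluster: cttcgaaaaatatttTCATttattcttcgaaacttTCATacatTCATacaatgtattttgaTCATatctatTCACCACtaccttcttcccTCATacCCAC

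Upstream of it in the same intron, a NOVA1 cluster of 13 tags (chr9:112016903-112017023) overlapped a NOVA2 cluster of 119 tags (chr9:112016765-112017029), and one of 10 tags (chr9:112017060-112017227) overlapped a NOVA2 cluster of 115 tags (chr9:112017050-112017253). In intron 10, NOVA1 clusters of 17 tags (chr9:112072215-112072493) and 21 tags (chr9:112072515-112072721) overlapped adjacent NOVA2 clusters of 158 tags (chr9:112072142-112072493) and 162 tags. In intron 1, a NOVA1 cluster of 14 tags (chr9:112118733-112118893) overlapped a NOVA2 cluster of 141 tags (chr9:112118712-112118925). In each of these pairs NOVA2 had more tags.

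In unscaled tags, 1 pair of *Arpp21* went the other way. A NOVA1 cluster of 50 tags (chr9:112111728-112111852), the highest NOVA1 cluster of the 4 genes, overlapped a NOVA2 cluster of 22 tags (chr9:112111731-112111850) in intron 1, for a log2 ratio of NOVA1 to NOVA2 tags of 1.18. It was the only one of the 16 pairs with more NOVA1 than NOVA2 tags, and 2.11% of all one-to-one intron pairs (73 of 3457) had a log2 ratio above 0. The direction at the other pairs depends on the scale. With tags scaled to the unique tags that the study states for each protein, 2 of the 16 pairs had more NOVA1 than NOVA2, and with tags scaled to the sum of each list 6 had, against 24.8% and 52.9% of all one-to-one intron pairs. Over the one-to-one pairs of *Arpp21* the unscaled ratio ran from 0.0870 to 2.27.

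In *Ttc28* intron 2, NOVA1 clusters of 12 tags (chr5:111351436-111351495), 12 tags (chr5:111376696-111376770), 39 tags (chr5:111390855-111391007) and 11 tags (chr5:111394043-111394141) overlapped NOVA2 clusters of 37, 28, 109 and 32 tags. Their ratios of NOVA1 to NOVA2 tags were between 0.324 and 0.429. Further along the same intron, NOVA1 clusters of 10 tags (chr5:111431202-111431265) and 25 tags (chr5:111432600-111432779) overlapped the NOVA2 clusters of 180 and 207 tags, with ratios of 0.0556 and 0.121. The ratio at the 257-tag cluster of intron 5 was 0.0428. The 4 pairs of *Ttc28* with the fewest NOVA2 tags had the highest ratios, but since a pair is listed only with at least 10 NOVA1 tags, low NOVA2 counts could not give low ratios.

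Over all 16 pairs there were 304 NOVA1 tags and 1914 NOVA2 tags, a ratio of 0.159 (0.140 to 0.179), with the 301-tag cluster counted once. It was 0.405 with tags scaled to the unique tags that the study states and 0.682 with tags scaled to the sum of each list. The unscaled ratio over all pairs of the lists whose NOVA2 cluster lay in an intron was 0.214. The median log2 ratio was -3.12 over the 16 pairs and -2.03 over all one-to-one intron pairs. These medians cover unlike sets, because the 301-tag cluster enters 2 of the 16 pairs. A pair is listed only with at least 10 NOVA1 tags, so pairs with low NOVA2 counts could not have low ratios. The NOVA2 counts of the 4 genes and of the whole lists were not matched. In whole cortex, fewer cells with a protein, less protein per cell and less of the transcript in those cells cannot be told apart.

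**Figure D3:**
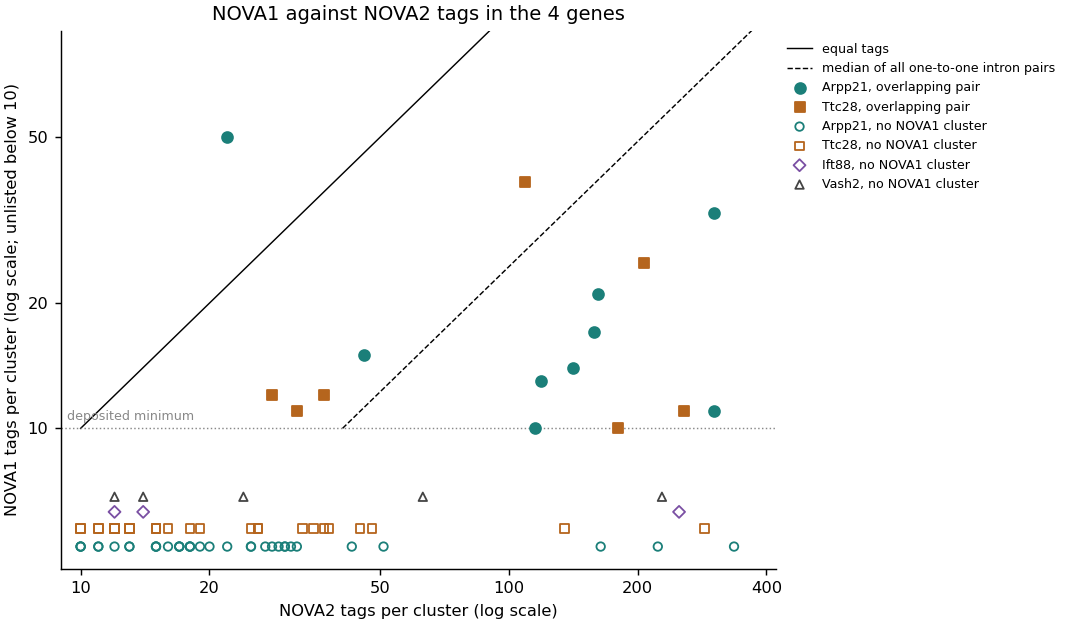
NOVA1 tags (y axis, log scale) against NOVA2 tags (x axis, log scale) at the 16 overlapping pairs (filled), with NOVA2 clusters that overlap no NOVA1 cluster drawn open below the deposited minimum of 10 tags, where the height has no meaning. The pair of 50 NOVA1 and 22 NOVA2 tags is the only one above the line of equal tags, and the open points of 200 tags or more lie at 223, 228, 250, 287 and 336.

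What the lists allow at the 4 chosen clusters is a bound. If a NOVA1 cluster was present at fewer than 10 tags, the ratio of NOVA1 to NOVA2 tags was under 0.0298 at the *Arpp21* cluster, 0.0348 at the *Ttc28* cluster, 0.0400 at the *Ift88* cluster and 0.0439 at the *Vash2* cluster. A NOVA1 cluster in only 1 library would also be missing, at any tag count. Among the 324 one-to-one intron pairs with 200 or more NOVA2 tags, the median ratio was 0.131 (quartiles 0.0949 and 0.184) and the lowest 0.0381. None of these pairs was below the first or the second bound, 2 were below the third and 6 below the fourth. Pairs below a bound could be listed only at higher NOVA2 counts, so this comparison is a description.

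The 3 NOVA1 clusters without NOVA2 overlap were of 2 kinds. One, with 10 tags, lay in intron 10 of *Arpp21* (chr9:112075126-112075229). The others lay in exons of *Ttc28* and not in introns. A NOVA1 cluster of 20 tags (chr5:111654826-111655089) lay in exon 8, which is 524 nt long, and one of 38 tags (chr5:111705829-111706099) in exon 16, which is 722 nt long. All 35 NOVA2 clusters of *Ttc28* were in introns, so in this gene the 2 exonic clusters were both of NOVA1 and none of NOVA2.

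Few clusters lay close to an exon. Of the 85 NOVA2 intron clusters, 11 were within 500 nt of an exon (12.9%), against 10.4% of all NOVA2 intron clusters. Besides those of *Ift88* and *Vash2*, these were in *Arpp21* and *Ttc28*. In *Arpp21*, a 51-tag cluster (chr9:112079659-112079755) was 161 nt upstream of exon 9, a 60-nt coding exon in all 14 transcripts that span it. A 30-tag cluster (chr9:112046134-112046320) was 91 nt upstream of exon 15, also coding and in all 11 transcripts that span it. The other 4 had an exon found in 1 transcript nearest to them. A 43-tag cluster (chr9:112118941-112119069) and the 141-tag cluster were 90 and 234 nt downstream of a 65-nt noncoding exon, and a 17-tag cluster (chr9:112018546-112018669) was 54 nt downstream of the alternative last exon. A 27-tag cluster (chr9:112090002-112090086) began 7 nt downstream of exon 3 of Arpp21-001 (chr9:112090094-112090270) and ended inside the edge of a 38-nt exon. In *Ttc28*, a 13-tag cluster (chr5:111651797-111651872) was 256 nt upstream of exon 7. The median distance to an exon was 6603 nt for the 85 clusters, those with NOVA1 overlap included. For all NOVA2-only intron clusters it was 9745 nt (quartiles 2052 and 34381), so *Ift88* and *Vash2*, with 1698 and 1080 nt, had their highest clusters below the lower quartile, *Arpp21* within the quartiles and *Ttc28* above the upper one.

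The annotation placed 2 small RNA genes in these introns, both miRNAs on the strand of the host, and no cluster of either protein touched a hairpin. The RefSeq mature sequences (annotation on GRCm38.p6) are given with the seed, bases 2 to 8, in capitals.
mmu-miR-128-3p: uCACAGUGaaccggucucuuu
mmu-miR-128-2-5p: gGGGGCCGaugcacuguaagaga
mmu-miR-701-5p: uUAGCCGCugaaauagaugga
mmu-miR-701-3p: uAUCUAUUaaagaggcuagc

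*Mir128-2* (chr9:112021136-112021219), whose product miR-128 is abundant in neurons, lay in intron 19 of *Arpp21*, the intron of the 336-tag cluster. Its nearest NOVA2 cluster was the 12-tag cluster in the alternative last exon, 2198 nt downstream, and its nearest NOVA1 cluster was that of 10 tags, 3908 nt downstream. Within 5 kb there were 4 NOVA2 and 2 NOVA1 clusters. *Mir701* (chr5:111433163-111433271) lay in intron 2 of *Ttc28* and had clusters of both proteins close by. The 207-tag NOVA2 cluster ended 316 nt upstream of its hairpin and the 25-tag NOVA1 cluster 383 nt upstream. Neither *Ift88* nor *Vash2* held an annotated small RNA on its strand.

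YCAY starts were denser in the NOVA2 clusters of each of the 4 genes than in flanks 200 to 500 nt from their ends. Over the 86 clusters the density was 45.3 per 1000 positions against 18.3 in flanks, a ratio of 2.48 (2.23 to 2.75), and over all NOVA2 intron clusters the ratio was 2.56 (2.55 to 2.58). In *Vash2* it was 5.32 (3.65 to 7.86), from 88.2 per 1000 positions in clusters. In *Arpp21* it was 2.07 (1.75 to 2.43), in *Ttc28* 2.43 (2.07 to 2.85) and in *Ift88* 3.27 (1.81 to 5.95). The *Vash2* interval lay above those of *Arpp21* and *Ttc28*, and the interval of *Ift88*, with 3 clusters, overlapped all others. Of the 92 YCAY starts of *Vash2*, 46 were in its 228-tag cluster and 23 in the 63-tag cluster of the same array. The interval counts the copies of a repeated unit as independent, so it may be too narrow. The 4 chosen clusters had 64.4 per 1000 positions, 3.46 times their flanks (2.38 to 5.14), and without them the ratio of the other 82 was 2.31 (2.06 to 2.58). The 19 NOVA1 clusters had 38.0 per 1000 positions, 1.62 times their flanks (1.28 to 2.04). Flanks left out positions inside clusters of the same protein only, so flanks of NOVA1 clusters could hold NOVA2 clusters. Flank density was 23.5 per 1000 positions for the NOVA1 clusters and 18.3 for the NOVA2 clusters. The ratios of the 2 proteins are therefore not directly comparable. All 86 NOVA2 clusters held at least 1 YCAY, as did 99.6% of all NOVA2 intron clusters.

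**Figure D4:**
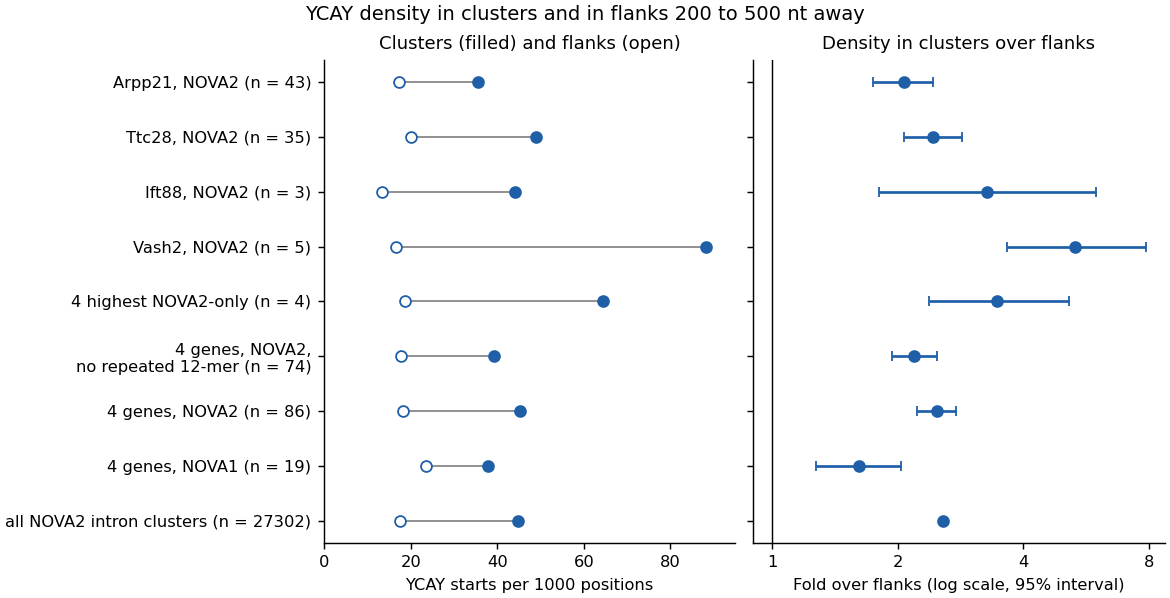
Left, YCAY starts per 1000 positions in clusters (filled) and in flanks (open) for each group of clusters. Right, the ratio of the densities (log scale) with its 95% interval, which covers counting error only. *Vash2* has the highest density, at 88.2 per 1000 positions, and the NOVA1 clusters of the 4 genes the lowest ratio, at 1.62. Flanks leave out clusters of the same protein only, so flanks of NOVA1 clusters can hold NOVA2 clusters.

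To set the arrays against other clusters, a cluster was counted as lying at a repeated 12-mer where a 12-mer occurred 3 or more times in the 300 nt around its midpoint, leaving out 12-mers that are themselves built from a unit of 1 to 6 nt. This measure was defined after the sequences of the 4 chosen clusters and a first measure of repeats over the list had been seen, so its shares are a description and the 4 support nothing by passing it. By this measure 12 of 86 NOVA2 clusters of the 4 genes were at a repeated 12-mer, or 14.0% (8.17 to 22.8), against 2.93% of all NOVA2 intron clusters and 6.45% of those with 100 or more tags. Without the chosen 4 the count was 8 of 82 (9.76%, 5.03 to 18.1), and with a measure that requires a match to itself at 1 fixed shift it was 5.81% of the 86. The 8 are not free of the choice, since the 257-tag cluster of *Ttc28* and the 63-tag cluster of *Vash2* lay in arrays of chosen clusters. The 12 comprised 7 clusters of *Ttc28*, 3 of *Vash2* and 1 each of *Arpp21* and *Ift88*. Besides the chosen 4, the 257-tag and the 109-tag (chr5:111390819-111391007) clusters of *Ttc28* and the 63-tag cluster of *Vash2* were the highest, and the other 5 had 10 to 32 tags. Not every such stretch carried YCAY, since the 109-tag cluster had 16.1 YCAY starts per 1000 positions, below its flanks at 35.4. Of the 19 NOVA1 clusters 3 were at a repeated 12-mer (15.8%), against 172 of 4044 NOVA1 intron clusters in the whole list (4.25%). The 3 were all in *Ttc28* and all inside NOVA2 clusters so counted.

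Over the whole list, NOVA2 intron clusters with NOVA1 overlap were at a repeated 12-mer more often than those without it, at 166 of 3843 (4.32%, 3.72 to 5.01) against 635 of 23459 (2.71%, 2.51 to 2.92). The same direction held in each group below 100 tags, at 3.58% against 2.37% for 10 to 19 tags, 4.23% against 2.89% for 20 to 49 and 3.76% against 3.61% for 50 to 99, with overlapping intervals in each. At 100 to 199 tags the order was the opposite, with 32 of 783 clusters with NOVA1 overlap (4.09%, 2.91 to 5.71) and 24 of 204 without it (11.8%, 8.03 to 16.9). At 200 or more tags there were 30 of 413 with NOVA1 overlap (7.26%, 5.14 to 10.2) and 5 of 10 without it, but 4 of these 5 are the chosen clusters on which the measure was defined. Without them it was 1 of 6, a cluster in *Opcml* with 221 tags (16.7%, 3.01 to 56.4), and that interval holds the share of clusters with NOVA1 overlap. How well reads from such arrays were placed by the aligner was not tested, nor was the number of units in the CD1 strain, which may differ from the reference genome.

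**Figure D5:**
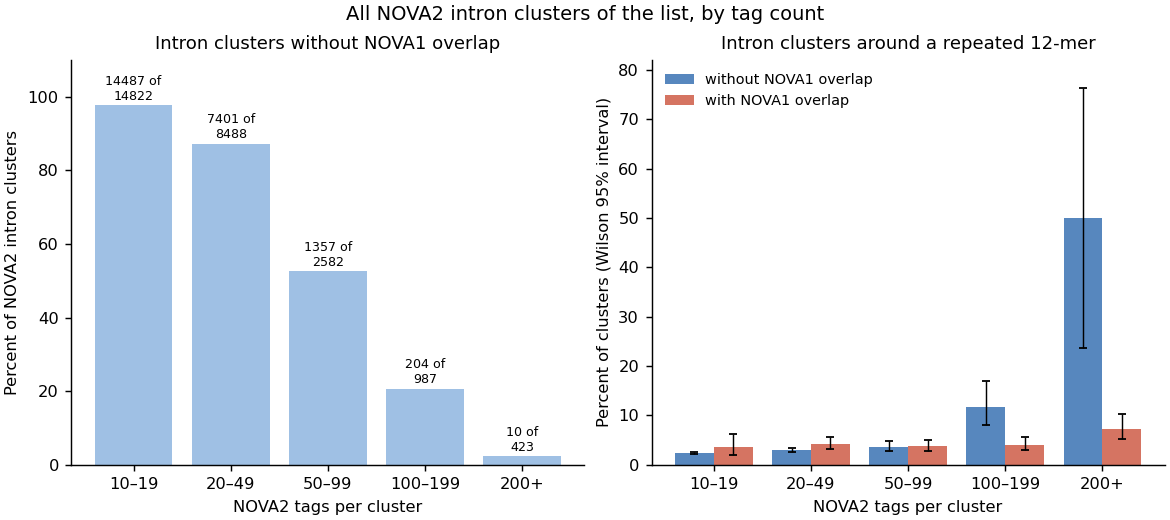
All NOVA2 intron clusters by tag count (x axis). Left, percent without NOVA1 overlap, with the counts printed above the bars. Right, percent around a repeated 12-mer, for clusters without (blue) and with (red) NOVA1 overlap, with Wilson 95% intervals. The share without overlap falls from 97.7% at 10 to 19 tags to 2.36% at 200 or more, and in the highest bin the blue bar stands for 5 of 10 clusters, 4 of which are the chosen clusters on which the measure was defined.

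Genes related to the 4 by family did not share their pattern as a rule. For intraflagellar transport complex B without *Ift88*, 19 gene symbols were listed, alternative names of the same gene included. Of these symbols 17 were in the annotation, and 7 of the 17 genes held a NOVA2 cluster (41.2%), against 22.7% of all protein-coding genes. The 7 genes held 10 NOVA2 clusters in all, and the highest, in *Cluap1*, had 64 tags and overlapped NOVA1. *Vash1*, the paralogue of *Vash2*, held 2 NOVA2 and 2 NOVA1 clusters, all in its 3' UTR and none in an intron, with at most 50 NOVA2 tags. Of the 3 R3H-domain relatives of *Arpp21* in the annotation, *R3hdm1* held 20 NOVA2 clusters and *R3hdm2* 10. The highest cluster of *R3hdm1*, which hosts *Mir128-1*, had 253 NOVA2 tags and overlapped NOVA1. Among 43 other genes named Ttc with a number, 11 held a NOVA2 cluster (25.6%), the highest being 247 tags in *Ttc3*. Of 352 genes with a miRNA in an intron, 203 held a NOVA2 cluster (57.7%), and 10 of them held more NOVA2 clusters than *Arpp21*. The miRNA hosts are also longer, with a median span of 74.8 kb against 15.4 kb for all protein-coding genes, and the part of length in these shares was not tested.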

How the data were processed

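The data were 2 lists of CLIP clusters, from 3 NOVA1 and 3 NOVA2 libraries of wild-type CD1 cortex at embryonic day 18.5. Reads had been aligned by the authors to mouse build mm9 (Novoalign is named in the submitters' processing notes), PCR duplicates were collapsed, and overlapping tags were joined into clusters, of which those seen in 2 or more libraries were retained. The deposited value of a cluster is a tag count of at least 10, pooled over the libraries and not scaled to depth. The study calls the measure behind its minimum a peak height. If the value is such a height, each tag sum here is a sum of heights. Library depth is unknown from the lists, and the unique tag totals stated by the study were used in 1 alternative.

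From these, clusters overlapping the GENCODE vM1 span of a gene by at least 1 nt on its strand were collected. The class of a cluster (CDS, UTR, noncoding exon, intron) was that covering most of its nucleotides, with exons of retained-intron transcripts left out. Introns are numbered in the transcript with the longest exon sum. Clusters of both proteins were called overlapping at 1 nt or more on the same strand. YCAY starts were counted on the cluster strand in clusters and in flanks 200 to 500 nt from either end. Flank positions inside clusters of the same protein were left out, those inside clusters of the other protein were not. Intervals were exact binomial for ratios and Wilson for shares. No test was run, because the pooled counts hold no replicate. Clusters were named by rule: per gene the highest NOVA2-only cluster, the next 4 by tags, all NOVA1 clusters with their NOVA2 partners, all within 500 nt of an exon, and those nearest a small RNA. Others, such as the 109-tag cluster discussed with the repeats and the *Opcml* cluster, were named after their values were seen. The members, the related gene lists and the rules were chosen with earlier results of these data known. The mature miRNA sequences were taken from RefSeq (GRCm38.p6). Functions were tested on simulated data. Scripts ran in Python 3.11.15 with pysam 0.24.0, pandas 2.3.3, NumPy 2.4.6 and SciPy 1.17.1. Not analysed here were clusters under 10 tags, the individual libraries and the RNA-seq samples.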

Additional observations from a re-analysis of the deposited data

How the results depend on the processing

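Of 44 alternative settings tried on 12 results, 27 left the value within its interval or near the count reported. At 20 or more tags the 4 genes held 7 NOVA1 and 46 NOVA2 clusters, and 100% of the latter were in introns. The share of NOVA2 clusters without NOVA1 overlap was 69.8% when a NOVA1 cluster within 1 kb counted as overlap, 66.7% for the 42 NOVA2 clusters of 25 or more tags, and 56.7% for the 30 left when the NOVA2 list was reduced by tags to the length of the NOVA1 list. Within 1 kb of a NOVA1 cluster lay 30.2% of the 86 and 31.2% of all NOVA2 clusters. Over all NOVA2 intron clusters the share without overlap also fell with tags, from 97.7% at 10 to 19 tags to 2.36% at 200 or more. Shares of the whole list at 25 or more tags and after the reduction are not given here. The ratio of NOVA1 to NOVA2 tags at overlapping clusters was 0.682 after scaling to the tag sum of each list and 0.405 after scaling to the unique tags of the study, and the pairs with more NOVA1 than NOVA2 tags were then 6 and 2 of 16. Measured from cluster midpoints, the distances to the nearest exon were 8385 nt in *Arpp21*, 39056 nt in *Ttc28*, 1894 nt in *Ift88* and 1332 nt in *Vash2*, and with exons of retained introns 33529 nt in *Ttc28*. The YCAY ratio was 2.19 without clusters at a repeated 12-mer. The share at a repeated 12-mer was 5.81% when the repeat had to match itself at 1 fixed shift with at least 75% identity. That measure misses units displaced by insertions and units longer than 60 nt, the largest shift tried. The settings for repeats, retained introns, NOVA1 within 100 nt, the unique tags of the study and the count of pairs were chosen after seeing the data. No paired analysis was possible because each list gives 1 tag count for its 3 libraries together, which also means that no library could be left out. A cluster listed for NOVA2 alone may hold NOVA1 tags below the minimum of 10, which the lists do not show.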
